A study of Homo sapiens with 6 samples.

Results

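The 42 genes described here are interferon-stimulated genes, a list of transcripts that cells raise when interferon signalling is active. They were chosen by name, as every entry of the deposited gene tables whose gene name is on the list, by a rule that uses no value of these libraries, although earlier results of these data were known when the list was drawn up. The 42 names are among the 34644 gene names of the tables, and they matched 45 of the 38648 listed entries, because IRF7, IRF9 and IFI27 each have another copy listed on an alternate scaffold of the genome assembly. The values given are those of the entry on the assembled chromosome unless stated otherwise. The question was at which level these genes stood in irradiated kidney tubule cells, whether any of them differed when PRDM16 was delivered, and how much any 1 library moved the set.

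The measurements were bulk RNA-seq of HK-2 cells, a line of epithelial cells immortalized from the proximal tubule of a human kidney. The control group (IR+NC-LV, n = 3) carried the negative control lentivirus and the other group (IR+PR-LV, n = 3) carried a lentivirus overexpressing PRDM16, a zinc finger transcription regulator. Both groups had therefore been transduced with a vector, and both had received 8 Gy of X-rays and were collected at day 7. Libraries of non-irradiated or of untransduced cells were not analysed here, so the levels below are those of irradiated, transduced cells, and neither the effect of the irradiation nor that of the vector on these genes could be measured. The labels number the replicates 1 to 3 as cells of the line and do not say that they were separate cultures. The p-values thus set a difference against the spread between these libraries, which may be technical, and may not hold for new cultures.

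Interferons are secreted proteins that bind receptors at the cell surface. Receptors for type I and type III interferons signal through the kinases JAK1 and TYK2 to a factor that holds STAT2 and IRF9 and binds the interferon-stimulated response element (ISRE) in promoters, whereas interferon gamma acts mainly through the gamma-activated site (GAS). The induced genes encode sensors of foreign or misplaced nucleic acid, enzymes and binding proteins that block viruses, the ubiquitin-like protein ISG15 with the enzymes that attach and remove it, and transcription factors that act back on the same pathway. Cells with damaged DNA can also switch on these genes, since DNA in the cytosol is sensed by cGAS and STING.

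The promoters are shown first because many of the members, though not all, hold the same kinds of element in them. In the RefSeq promoters of GRCh38.p14, taken from 250 bases before to 50 bases after the start of each gene, 34 of the 42 members had an entry, and IRF7, IFIT2, OAS2, OASL, MX2, USP18, TRIM22 and GBP2 had none. The ISRE core, taken as GAAA and GAAA with 2 bases of any kind between them and searched on both strands, was found in 22 of the 34 promoters (64.7%), against 997 of all 27305 promoters of the same length (3.65%). The GAS core TTCNNNGAA, which reads the same on both strands, was found in 10 of the 34 (29.4%), against 2168 of 27305 (7.94%). Either core was present in 26 of the 34 members (76.5%), against 11.2% of all promoters, and the cores overlapped each other in 3 of the 6 members that held both. A match describes letters and not a bound site. The stretches around the matches upstream of the start are given for 8 members on which the results below turn, 5′ to 3′ on the strand of the gene, with the letters of 1 kind of core in capitals, GAS for IRF1 and IRF9 and ISRE for the others. IRF1 and IRF9 carried a GAS core, at chr5:132490869-132490917 on the minus strand and chr14:24161182-24161230 on the plus strand. The ISRE cores were at chr2:162318685-162318863 (minus) for IFIH1, chr1:1013364-1013419 (plus) for ISG15, chr4:88456974-88457074 (plus) for HERC5, chr10:89392487-89392549 (plus) for IFIT1, chr10:89327821-89327904 (plus) for IFIT3 and chr19:17405725-17405780 (minus) for BST2, and in IFIT1, IFIT3, HERC5 and part of IFIH1 they read as TTTC and TTTC, the reverse complement. The core occurred 3 times in the stretches of IFIH1 and HERC5 and 2 times in those of ISG15, IFIT1, IFIT3 and BST2, and matches that share bases run together in the capitals. Of these 8 promoters only that of BST2 held both kinds, with GAS matches that began 136 and 58 bases before the start. The first shares bases with an ISRE match and is otherwise in lower case, and the second lies outside the stretch.
IRF1: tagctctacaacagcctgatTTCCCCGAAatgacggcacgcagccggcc
IRF9: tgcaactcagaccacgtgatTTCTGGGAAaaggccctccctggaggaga
IFIH1: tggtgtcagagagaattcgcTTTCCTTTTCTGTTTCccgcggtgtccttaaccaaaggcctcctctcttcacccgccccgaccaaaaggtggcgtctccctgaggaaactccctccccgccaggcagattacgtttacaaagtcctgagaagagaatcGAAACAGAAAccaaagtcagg
ISG15: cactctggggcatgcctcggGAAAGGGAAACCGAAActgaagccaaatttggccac
HERC5: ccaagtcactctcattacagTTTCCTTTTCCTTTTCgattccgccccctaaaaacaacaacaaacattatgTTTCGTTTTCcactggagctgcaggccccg
IFIT1: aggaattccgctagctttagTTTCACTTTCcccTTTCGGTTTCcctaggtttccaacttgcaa
IFIT3: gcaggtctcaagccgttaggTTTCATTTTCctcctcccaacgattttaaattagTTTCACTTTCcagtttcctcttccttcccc
BST2: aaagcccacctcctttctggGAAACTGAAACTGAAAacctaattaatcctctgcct

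Depth was 13407074 to 28540041 counts in a library, and 3 counts, taken as the limit that a count of 0 allows, correspond to 0.105 to 0.224 CPM (counts scaled to a common library total), counting error only. PRDM16 was counted 2, 0 and 1 times in IR+NC-LV against 14, 10 and 8 times in IR+PR-LV (exact permutation test, two-sided, p = 0.1, the smallest that 3 against 3 libraries allow), although reads from the transgene may not fall on the exons that were counted. Of 8 proximal tubule markers, 8 had a count and 4 reached 1 CPM, while the defining markers LRP2 and SLC22A6 were close to 0, with 3 and 1 counts in the 6 libraries together. The 6 epithelial keratin and adhesion markers summed to 1100 to 1206 CPM in IR+NC-LV and to 1138 to 1432 CPM in IR+PR-LV. Leukocyte markers, of which 5 of 5 had a count, summed to 5.07 to 9.86 CPM in IR+NC-LV and to 2.55 to 3.68 CPM in IR+PR-LV, with PTPRC, the common leukocyte antigen, at 10 counts in all. Most of that difference was ITGAM, an integrin of myeloid cells, at 3.10, 2.56 and 6.84 CPM in IR+NC-LV and 0.536, 0.930 and 0.543 CPM in IR+PR-LV. Its log2 fold change of -2.54 had an adjusted p of 0.0755 in edgeR, and it passed the threshold in DESeq2 (-2.58, adjusted p = 6.4e-06). The markers LILRA4 and CLEC4C of plasmacytoid dendritic cells, the professional producers of interferon, had no count. Endothelial markers summed to 0.902 to 1.31 CPM against 0.715 to 0.978 CPM, and fibroblast markers to 18.8 to 26.4 CPM against 20.3 to 25.6 CPM. Whether these markers had a part in the results below was not tested.

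Interferon-stimulated genes were readily detected in the irradiated HK-2 cells. Levels of different genes were compared in TPM, the deposited counts per base of exon scaled to the same total in every library, as the mean of the 6 libraries. The median level of the 39 members that passed the filter on low counts was 22.3 TPM, with quartiles of 8.14 and 41.6 TPM, beside a median of 16.3 TPM and quartiles of 3.79 and 50.9 TPM for all 15340 tested genes. Among all 42 members, 8 stood at 50 TPM or more, 20 between 10 and 50 TPM, 11 between 1 and 10 TPM and 3 under 1 TPM. The 3 members that did not pass the filter were IFI27, a mitochondrial protein that is often among the most strongly induced genes in blood, EPSTI1, and XAF1, which promotes cell death. IFI27 had 7, 5 and 9 counts in IR+NC-LV and 8, 10 and 4 in IR+PR-LV. EPSTI1 had 0, 3 and 4 counts in IR+NC-LV and 2, 6 and 3 in IR+PR-LV, and XAF1 had 0, 0 and 1 against 0, 2 and 2. No member was at 0 in all libraries, and in these 3 the counts of both groups overlapped.

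BST2, or tetherin, which holds budding viruses at the cell surface, had the highest level of the set. Its TPM was 427, 437 and 386 in IR+NC-LV and 455, 453 and 407 in IR+PR-LV (427 ± 27.1, SD, n = 6) and so above all other members in every library, whose highest value in any library was the 102 TPM of PLSCR1. The next members were PLSCR1, a membrane scramblase with antiviral activity (86.4 ± 9.16 TPM), UBE2L6, the conjugating enzyme for ISG15 (84.2 ± 4.99), IFIT3 (82.0 ± 3.73), ISG15 itself (78.6 ± 8.14), the DNA sensor IFI16 (74.7 ± 4.38) and HERC5, the ligase for ISG15 (68.9 ± 4.39). Neighbours in this order did not differ beyond their spread, since their values over the 6 libraries overlapped. GBP1 (50.02 ± 2.54) and IFIT2 (49.6 ± 5.26) followed, and they did not differ beyond their spread either. At the other end stood OAS2 (0.726 ± 0.295 TPM), IRF7 (1.18 ± 0.457), CMPK2 (1.22 ± 0.288), MX2 (1.25 ± 0.312) and MX1 (1.64 ± 0.644), the lowest of the tested members, whose values overlapped over the libraries. The level of IRF7 is that of 1 of its 2 listed copies. With both copies added its TPM was 3.65, 2.75 and 2.47 in IR+NC-LV and 1.89, 1.56 and 2.44 in IR+PR-LV. Its order among these 5 thus depends on the copies counted. The levels were thus not uniform within a family, since OAS3 stood at 40.4 ± 2.84 TPM, OASL at 20.9 ± 3.29, OAS1 at 8.76 ± 0.935 and OAS2 under 1.

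**Figure D1:**
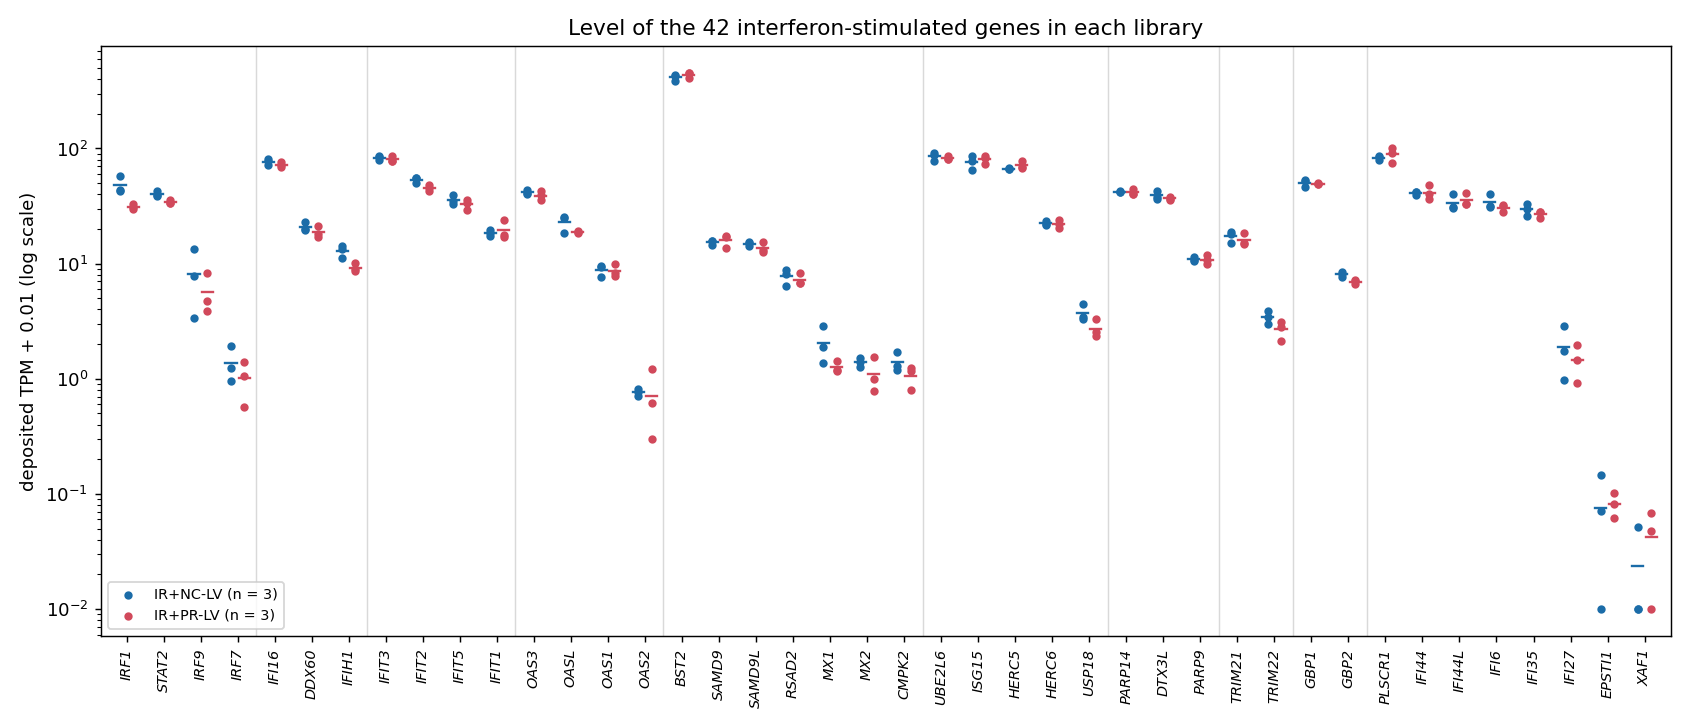
Deposited TPM (log scale, with 0.01 added so that 0 can be drawn) of each of the 42 members in the 3 IR+NC-LV and the 3 IR+PR-LV libraries, grouped by role, with a short line at each group mean. BST2 lies far above the others at 427 TPM on average, most members lie between 1 and 100 TPM, and EPSTI1 and XAF1 lie near 0.

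No interferon-stimulated gene passed the threshold for a difference of IR+PR-LV from IR+NC-LV in edgeR. Of the 39 tested members, 0 had an adjusted p under 0.05 in edgeR's quasi-likelihood test (Benjamini-Hochberg over the 15340 genes tested), where 0.0652% of all genes did, 0.0456% on the lower side. DESeq2 called 1 member, IRF1, as described below, and 1.13% of the 14851 genes to which it gave an adjusted p. An unadjusted p under 0.05 was found for 5 members, 12.8% of the 39, beside 10.5% of all genes. These 5 were IRF1, IFIH1, IFIT2, STAT2 and MX1, and all were lower in IR+PR-LV, as were 5.97% of all genes at that p, while 0 members and 4.55% of all genes were higher. The lower side held 27 of the 39 members (69.2%) and 48.9% of all genes, but the differences were small, and the signs of IFIT3 and GBP1, whose log2 fold changes were 0.00 to 2 decimals, turned with RLE normalization and with DESeq2. The median log2 fold change of the members was -0.07, beside 0.0044 for all genes, and it ranged from -0.62 for MX1 to 0.13 for PLSCR1. A log2 fold change within 0.2 of 0 was found in 28 members (71.8%), against 75.2% of all genes. The median standard error of a member was 0.106. In bulk RNA, fewer cells that express a gene and less RNA per cell cannot be told apart.

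**Figure D2:**
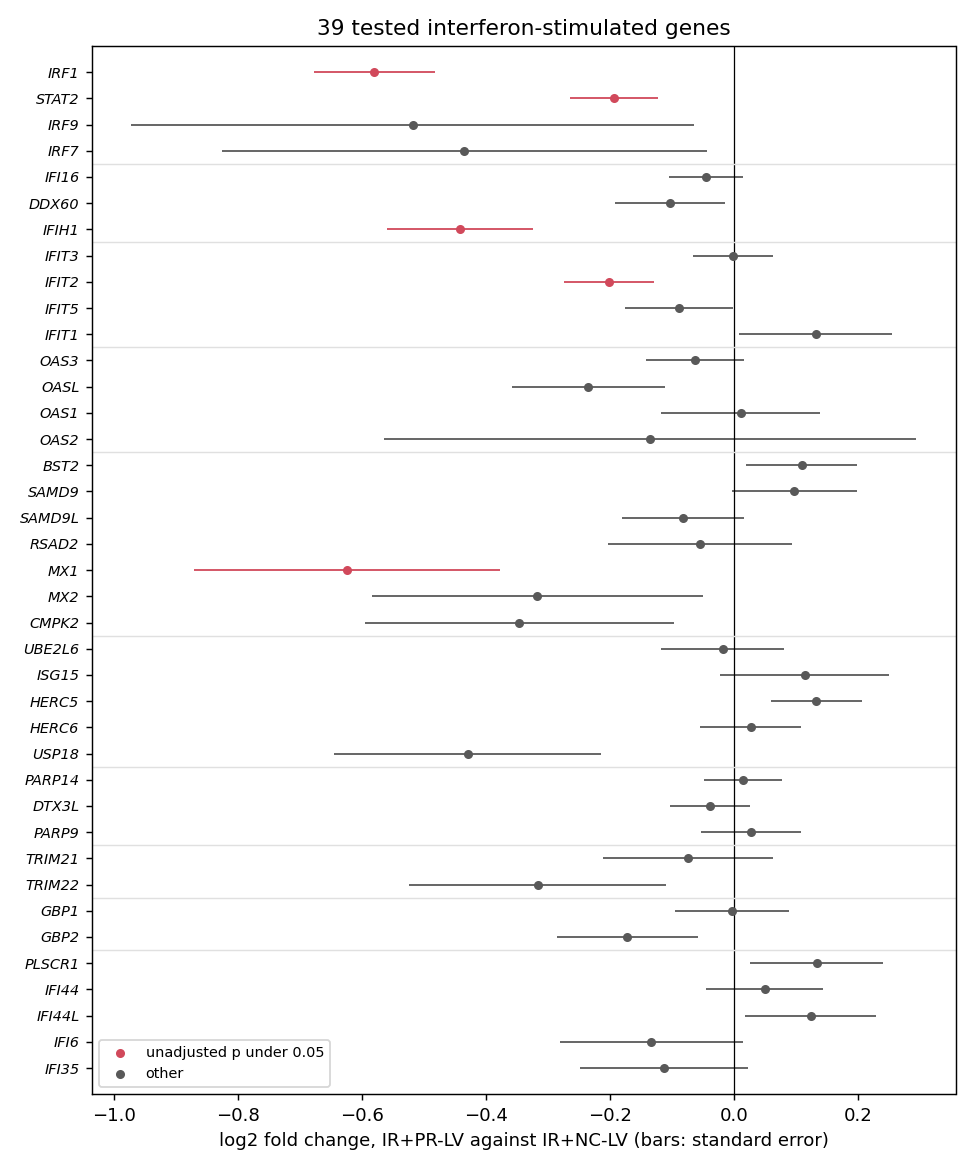
Log2 fold change of IR+PR-LV against IR+NC-LV (x axis) for the 39 tested members by role, with bars of 1 standard error from edgeR. The 5 members with an unadjusted p-value under 0.05 lie left of 0, from MX1 at -0.62 to STAT2 at -0.19, and the others lie on either side of 0, up to PLSCR1 at 0.13.

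The 4 signalling and transcription factors of the list, STAT2, IRF9, IRF1 and IRF7, were all on the lower side, beside 48.9% of all genes. Their median log2 fold change was -0.48, but IRF9 and IRF7 had overlapping groups and standard errors of 0.45 and 0.39. EdgeR called 0 of 4, with 2 under an unadjusted p of 0.05, beside 10.5% of all genes, where DESeq2 called 1. The same shares of all genes stand beside the roles below. IRF1, a transcription factor induced by interferon gamma through the GAS core printed above, has its exons between 132481609 and 132490789 of chromosome 5 (minus strand). It was present at 57.9, 57.8 and 71.6 CPM in IR+NC-LV (62.4 ± 7.96, SD, n = 3) and at 44.4, 39.9 and 40.9 CPM in IR+PR-LV (41.7 ± 2.35). All 3 IR+PR-LV libraries lay below all 3 IR+NC-LV libraries, and IR+NC-LV replicate 3 was the highest. The log2 fold change was -0.58 (SE 0.10), or 33.1% lower, with an unadjusted p of 2.0e-04 and an adjusted p of 0.0799 in edgeR. It passed the threshold in DESeq2 (log2 fold change -0.57, adjusted p = 6.3e-05) and in edgeR without the filter on low counts (adjusted p = 3.8e-05), and with each library left out in turn the edgeR adjusted p lay between 0.0791 and 0.313. In the transcripts of GENCODE release 29, 69.9% of the 100-base stretches of IRF1 occur in no other annotated gene, the rest being shared with AC116366.3 and C5orf56, but no other entry of the deposited tables overlaps its exons.

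STAT2, a subunit of the factor that binds the ISRE, is at 56341597 to 56360161 of chromosome 12 (minus strand). Its CPM was 69.9, 65.7 and 61.0 in IR+NC-LV (65.5 ± 4.45) and 56.6, 56.7 and 58.8 in IR+PR-LV (57.3 ± 1.22). The groups did not overlap, by a margin smaller than the range within IR+NC-LV, and the log2 fold change of -0.19 (SE 0.07) had an edgeR adjusted p of 0.397. IRF9, the DNA-binding subunit of the same factor, is at 24161265 to 24166565 of chromosome 14 (plus strand). Its CPM was 4.29, 7.41 and 1.73 in IR+NC-LV and 2.62, 4.65 and 2.12 in IR+PR-LV, so replicate 3 of the control group was the lowest of all and replicate 2 the highest. Its log2 fold change of -0.52 had a standard error of 0.45 (edgeR adjusted p = 0.731), and it was 0.07 without IR+NC-LV replicate 2 and -0.95 without IR+PR-LV replicate 2. The copy of IRF9 on an alternate scaffold had 1 count in the 6 libraries together, and with both copies added the log2 fold change was -0.51 (SE 0.44). In GENCODE release 29 each 100-base stretch of IRF9 also occurs in another annotated gene, AL136295.5, but no other entry of the deposited tables overlaps its exons.

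Neighbours of IRF9 on chromosome 14 also varied between libraries. PSME1, a proteasome activator that is also induced by interferon, ranged from 3.70 to 61.3 CPM over the 6 libraries, PSME2 from 21.7 to 85.8, RNF31 from 3.80 to 10.9 and IPO4 from 10.2 to 34.7, and PSME1 and PSME2 did not follow the groups. Over all genes with a mean of at least 5 CPM, the within-group SD of log2 CPM had a median of 0.106 for the 10712 listed 1 time and 0.407 for the 408 listed more than 1 time. The 31 members above that level that are listed 1 time had a median of 0.132, from 0.0476 for IFI16 to 0.194 for ISG15. IRF7, which drives type I interferon genes, is listed 2 times. Its CPM on chromosome 11 was 0.596, 1.23 and 0.720 in IR+NC-LV and 0.357, 0.679 and 0.870 in IR+PR-LV, with overlapping groups and a log2 fold change of -0.44 (SE 0.39, edgeR adjusted p = 0.739). With the counts of both copies added the counts were 38, 37 and 20 against 20, 28 and 28, and the log2 fold change was -0.59 (SE 0.24, edgeR adjusted p = 0.448).

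The 3 sensors of nucleic acid were on the lower side as well, with a median of -0.10 and 0 of 3 past the threshold in edgeR or DESeq2. IFIH1, which encodes MDA5, a sensor of long double-stranded RNA, is at 162267074 to 162318684 of chromosome 2 (minus strand). It was measured at 14.8, 12.5 and 14.5 CPM in IR+NC-LV (13.96 ± 1.28) and at 10.005, 9.62 and 11.2 CPM in IR+PR-LV (10.3 ± 0.822). The groups did not overlap. The log2 fold change was -0.44 (SE 0.12), with an unadjusted p of 0.0044 and an adjusted p of 0.264 in edgeR. IFIH1 and IRF1 were the only members with an unadjusted p under 0.05 in all 6 edgeR fits that left out 1 library. These fits share most of their libraries and are not separate tests. In single fits 6.06% to 16.4% of all genes were under that p, and the share under it in all 6 is not given here. The promoters of these 2 genes differ, with 3 ISRE matches in IFIH1 and a GAS match in IRF1. Any bearing of the matches on the differences was not tested. IFI16 was far more abundant and hardly differed, at 119.6 ± 4.25 CPM in IR+PR-LV against 123.4 ± 3.74 in IR+NC-LV (log2 fold change -0.04), and DDX60, a helicase that assists RNA sensing, had -0.10 with overlapping groups.

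In the IFIT family, proteins that bind viral RNA lacking host marks at its cap, the members of 1 gene cluster on chromosome 10 had log2 fold changes of either sign. Neither edgeR nor DESeq2 called any of the 4 members (0 of 4), while 1 was under the unadjusted 0.05 in edgeR. IFIT2 (chromosome 10, 89302046 to 89309271, plus strand) was at 57.7, 53.4 and 54.3 CPM in IR+NC-LV (55.1 ± 2.27) and at 45.1, 48.3 and 50.4 CPM in IR+PR-LV (47.9 ± 2.67). The groups did not overlap, and the log2 fold change was -0.20 (SE 0.07, edgeR adjusted p = 0.397). IFIT1 was at 26.2, 25.1 and 26.1 CPM in IR+NC-LV and at 24.5, 26.0 and 34.2 CPM in IR+PR-LV. Its log2 fold change of 0.13 (SE 0.12, edgeR adjusted p = 0.747) came from IR+PR-LV replicate 3 and was -0.03 without it. IFIT3, which stabilizes IFIT1, was at 67.3, 65.2 and 64.3 CPM against 63.5, 64.1 and 69.0 CPM, and the groups overlapped. IFIT5 had -0.09 (SE 0.09).

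The OAS enzymes make the second messenger that activates RNase L on sensing double-stranded RNA, and 0 of the 4 members passed either the adjusted or the unadjusted threshold in edgeR, nor the adjusted one in DESeq2. Their log2 fold changes were -0.06 for OAS3, -0.23 for OASL, which lacks the synthetase activity, 0.01 for OAS1 and -0.14 for OAS2. OAS2 was at 1.43, 1.66 and 1.44 CPM in IR+NC-LV and at 1.25, 0.608 and 2.45 CPM in IR+PR-LV. Both the highest and the lowest library were in IR+PR-LV, so the sign of the difference was set by which of them was kept, with 0.29 without replicate 2 and -0.77 without replicate 3 of that group.

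Among the 7 other antiviral effectors edgeR and DESeq2 each called 0, and only MX1 was under the unadjusted 0.05 in edgeR. MX1 encodes a dynamin-like GTPase that traps viral particles and is at 41420329 to 41459214 of chromosome 21 (plus strand). Its CPM was 3.40, 2.47 and 4.75 in IR+NC-LV (3.54 ± 1.15) and 2.14, 2.11 and 2.55 in IR+PR-LV (2.27 ± 0.248). The largest difference of the set was thus in a gene of low level, and the groups overlapped, with IR+NC-LV replicate 2 below IR+PR-LV replicate 3. The log2 fold change was -0.62 (SE 0.25, edgeR adjusted p = 0.428), and it was -0.36 without IR+NC-LV replicate 3 and -0.84 without IR+NC-LV replicate 2. Its paralog MX2 was at 1.91, 1.76 and 1.94 CPM in IR+NC-LV and at 1.37, 1.07 and 2.12 CPM in IR+PR-LV (log2 fold change -0.32, edgeR adjusted p = 0.718). CMPK2, a mitochondrial nucleotide kinase, was at 2.32, 1.80 and 1.51 CPM against 1.61, 1.72 and 1.09 CPM (-0.35, edgeR adjusted p = 0.675). RSAD2, which encodes viperin and overlaps CMPK2 by 175 exon bases on the opposite strand, had -0.05. BST2 was at 131, 137 and 111 CPM in IR+NC-LV and at 142, 142 and 125 CPM in IR+PR-LV, with overlapping groups and a log2 fold change of 0.11 (SE 0.09, edgeR adjusted p = 0.714). SAMD9 and SAMD9L, paired neighbours that block translation of viral proteins, had 0.10 and -0.08.

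The ISG15 pathway was the most abundant role by its median of 68.9 TPM, and it had a median log2 fold change of 0.03, with 0 of 5 past the threshold in edgeR or DESeq2 and 0 at an unadjusted p under 0.05. HERC5, which attaches ISG15 to newly made proteins, was at 83.2, 84.2 and 76.2 CPM in IR+NC-LV (81.2 ± 4.36) and at 86.1, 85.4 and 96.1 CPM in IR+PR-LV (89.2 ± 5.99). It was the only member with all IR+PR-LV libraries above all IR+NC-LV libraries, by a gap smaller than the spread within either group, and its log2 fold change of 0.13 (SE 0.07) had an edgeR adjusted p of 0.566. ISG15 was at 15.1, 17.1 and 11.9 CPM against 17.2, 14.8 and 16.1 CPM, with 0.11 (SE 0.14, edgeR adjusted p = 0.804) and -0.01 without IR+NC-LV replicate 3. UBE2L6 was at 35.4, 37.1 and 29.3 CPM against 32.9, 35.5 and 32.3 CPM, with -0.02 (edgeR adjusted p = 0.962). HERC6 had 0.03. USP18, the protease that removes ISG15 and damps receptor signalling, had the largest difference of the role at -0.43 (SE 0.22, edgeR adjusted p = 0.523), with 84.6% of its 100-base stretches unique and the rest shared with USP41.

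The remaining roles held no member with an unadjusted p under 0.05, and 0 of them passed the threshold in edgeR or DESeq2. PARP9, PARP14 and DTX3L, ADP-ribosyl transferases and a ubiquitin ligase that act together in the interferon response, lay between -0.04 and 0.03. TRIM21, an intracellular antibody receptor, had -0.07 and TRIM22 had -0.32 (SE 0.21). Of the guanylate-binding proteins, GTPases that attack the membranes around pathogens, GBP1 had 0.00, and GBP2, named because its groups did not overlap, was at 10.6, 9.83 and 9.50 CPM against 8.99, 9.15 and 8.37 CPM (log2 fold change -0.17, edgeR adjusted p = 0.642). GBP2 shares 445 exon bases with an antisense entry, LOC112268267, and without strand in the counting their reads could not be told apart. PLSCR1 was at 62.8, 61.7 and 54.1 CPM in IR+NC-LV and at 55.4, 67.1 and 73.5 CPM in IR+PR-LV, so that the IR+PR-LV libraries spanned the control libraries, with 0.13 (SE 0.11, edgeR adjusted p = 0.709). IFI44, IFI44L, IFI6 and IFI35 lay between -0.13 and 0.12.

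**Figure D3:**
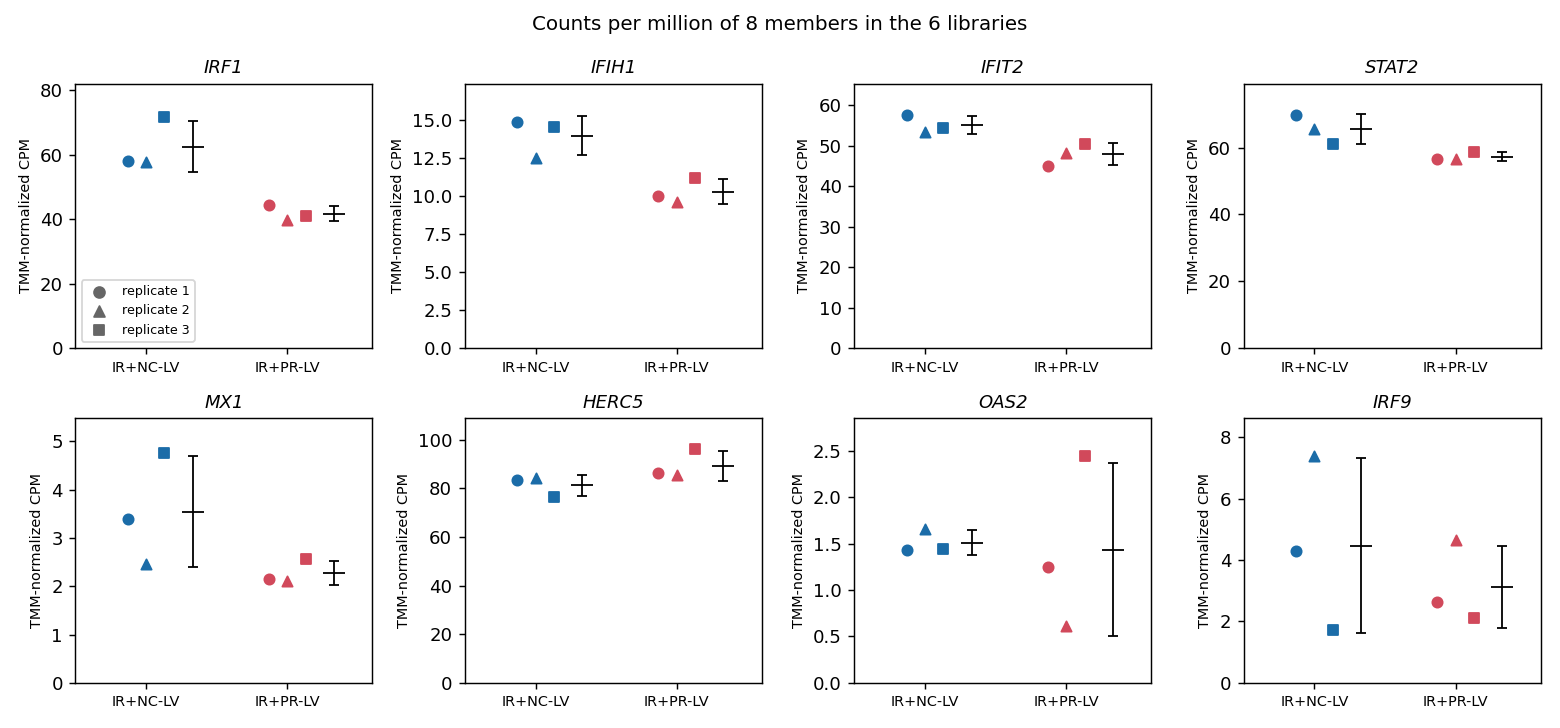
TMM-normalized CPM (y axes from 0) of 8 members in each library, replicates 1 to 3 by marker shape, with the mean and SD of each group (n = 3). IRF1, IFIH1, IFIT2 and STAT2 are lower in all IR+PR-LV libraries, HERC5 is higher in all, and MX1, OAS2 and IRF9 have groups that overlap.

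Non-overlapping groups were counted separately from the test. In 6 of the 39 tested members (15.4%) the 3 IR+PR-LV libraries did not overlap the 3 IR+NC-LV libraries, beside 17.0% of all genes. IRF1, IFIH1, IFIT2, STAT2 and GBP2 were lower in all, beside 9.54% of all genes, and HERC5 was higher in all, beside 7.46%. For each of the 6 the exact permutation test on the log2 CPM (two-sided) gave p = 0.1, the smallest value that 3 against 3 libraries allow.

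The median departure of a single library was larger in size than the median difference between the groups (-0.07) in 3 of the 6 libraries, IR+PR-LV replicate 3 and IR+NC-LV replicates 1 and 3. For each library, the log2 CPM of every tested member was compared with the mean of the other 2 libraries of its group. The 2 measures are unlike, since the difference between the groups sets 3 libraries against 3. Departures of 1 library against 2 vary more in any case, so the larger size does not mark a library as unusual. In IR+PR-LV replicate 3 the members were higher by a median of 0.16, with 29 of 39 above the other libraries of the group and 27 the highest of their own 3. In IR+NC-LV replicate 1 they were higher by a median of 0.09, with 28 of 39 above. IR+NC-LV replicate 3 had a median of -0.08 and IR+PR-LV replicate 1 a median of -0.07, with 24 and 27 members below, and IR+PR-LV replicate 2 and IR+NC-LV replicate 2 had -0.05 and -0.01. Over all tested genes the same medians were between -0.0016 and 0.0073, but the scaling of the libraries brings them near 0 in advance. With signs left aside, the median departure in IR+PR-LV replicate 3 was 0.167 for members and 0.133 for all genes. In replicates 1, 2 and 3 of IR+NC-LV it was 0.103, 0.0985 and 0.105 for members, against 0.0881, 0.111 and 0.150. In replicates 1 and 2 of IR+PR-LV it was 0.134 and 0.116 for members, against 0.172 and 0.0938. Among the 6 libraries together, the highest value of a member fell in IR+PR-LV replicate 3 for 14 members and in IR+NC-LV replicate 1 for 13, and the lowest fell in IR+PR-LV replicate 1 for 15 and in IR+PR-LV replicate 2 for 10. The IR+PR-LV group thus held both the library with the most highest values and the library with the most lowest values of these genes. The largest single departures were those of the low members, OAS2 at 1.38 above in IR+PR-LV replicate 3 and 1.38 below in IR+PR-LV replicate 2, and IRF9 at 1.65 below in IR+NC-LV replicate 3 and 1.40 above in IR+NC-LV replicate 2.

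**Figure D4:**
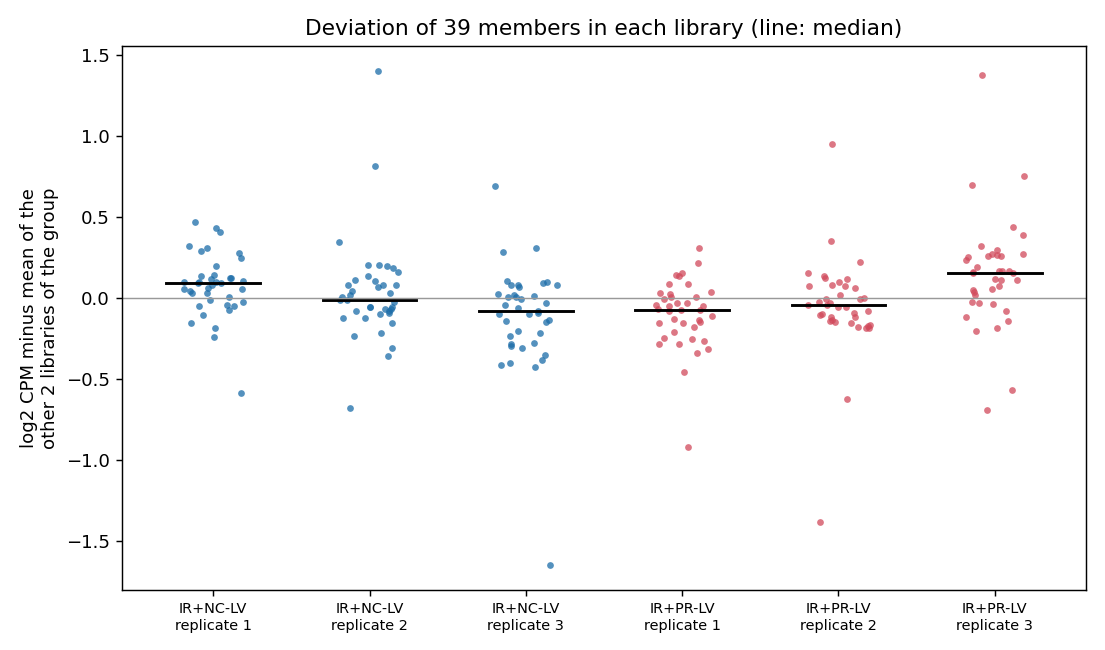
Log2 CPM of each of the 39 tested members in a library minus the mean of the other 2 libraries of its group (y axis), for the 6 libraries, with a line at the median. The medians run from -0.08 in IR+NC-LV replicate 3 to 0.16 in IR+PR-LV replicate 3.

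Leaving out 1 library at a time kept the median log2 fold change of the members below 0 but changed its size. With replicate 1, 2 or 3 of IR+NC-LV removed it was -0.03, -0.06 or -0.09, and with replicate 1, 2 or 3 of IR+PR-LV removed it was -0.04, -0.04 or -0.12, against -0.07 with all 6. The number of members on the lower side lay between 22 without IR+NC-LV replicate 1 and 31 without IR+PR-LV replicate 3. The number with an unadjusted p under 0.05 was 2 with IR+NC-LV replicate 1 removed and also with IR+PR-LV replicate 2 removed, and 8 without IR+PR-LV replicate 3, where DDX60, MX2 and USP18 joined the 5 named above. Without IR+PR-LV replicate 1 there were 6, among them SAMD9 and PLSCR1. The share of all genes under that p moved as well, to 6.39% where IR+NC-LV replicate 1 was removed and to 6.06%, 8.30% and 16.4% where replicate 2, 3 or 1 of IR+PR-LV was removed, beside 10.5% with all 6 libraries. In 25 of the 39 members the sign of the log2 fold change was the same in all 6 fits, on the lower side for 20 and on the higher side for BST2, SAMD9, HERC5, IFI44L and PLSCR1. The same share over all genes is not given here, and the fits share most of their libraries.

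The rest of the interferon pathway was examined with 79 further genes in 5 lists, of which 57 could be tested. EdgeR and DESeq2 each called 0 of the 57, and 5 were under the unadjusted 0.05 in edgeR, 4 lower and 1 higher, or 8.77%, beside 10.5% of all genes. Their median log2 fold change was -0.02, with 35 on the lower side (61.4%, beside 48.9% of all genes) and 22 on the higher side. Of the 11 ligands only IFNE, an interferon of epithelia, passed the filter on low counts (log2 fold change -0.26, edgeR adjusted p = 0.855). IFNB1, the interferon that most cells can make, had 6, 2 and 3 counts in IR+NC-LV and 0, 1 and 1 in IR+PR-LV, and IFNL1, a type III interferon, had 0, 1 and 1 against 1, 1 and 1. The values of IFNB1 did not overlap between the groups, but all these counts were at or near the limit of what the depth shows.

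The receptor chains IFNAR1 and IFNAR2 and the kinases JAK1 and TYK2 had log2 fold changes close to 0. IFNAR1 was at 166, 169 and 165 CPM in IR+NC-LV and at 152, 169.7 and 165 CPM in IR+PR-LV, and IFNAR2 was at 72.4, 69.4 and 63.8 CPM against 63.8, 69.3 and 67.3 CPM, each with a log2 fold change of -0.04. JAK1 and TYK2 had 0.07 and -0.06. Among the sensors and adaptors, CGAS, which detects DNA in the cytosol, was at 86.6, 89.7 and 77.3 CPM against 80.8, 82.3 and 86.6 CPM (-0.02). STING1, its adaptor, was at 1.85, 2.09 and 1.51 CPM against 4.94, 1.11 and 2.17 CPM, and the log2 fold change of 0.53 (SE 0.47, edgeR adjusted p = 0.735) was -0.20 without IR+PR-LV replicate 1. It too has a copy listed elsewhere.

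The 14 tested sensors and adaptors had a median log2 fold change of 0.03, with 6 on the lower and 8 on the higher side, and 2 of them, IKBKE and DHX58, had an unadjusted p under 0.05 (14.3%, beside 10.5% of all genes). IKBKE, a kinase that activates IRF3 and IRF7 downstream of RNA sensing, was at 8.64, 7.64 and 10.3 CPM in IR+NC-LV and at 6.79, 6.36 and 5.71 CPM in IR+PR-LV (log2 fold change -0.49, SE 0.15, edgeR adjusted p = 0.327). DHX58, or LGP2, which modulates RNA sensing by MDA5, was at 5.66, 5.94 and 7.63 CPM against 4.70, 5.01 and 4.51 CPM (-0.43, SE 0.16, edgeR adjusted p = 0.401). In both the groups did not overlap, as in 7 of the 57 tested genes of these 5 lists (12.3%), beside 17.0% of all genes. SLFN5 had -0.14 and JAK2 -0.21, with edgeR adjusted p-values of 0.451 and 0.475. The 1 entry on the higher side was a copy of IFNGR2, a chain of the interferon gamma receptor, on an alternate scaffold. It was at 3.46, 3.18 and 3.45 CPM in IR+NC-LV and at 3.10, 13.02 and 19.6 CPM in IR+PR-LV. This copy was used because it had the most counts over the 6 libraries, and IR+PR-LV replicates 2 and 3 held most of those. The difference is thus that of a copy chosen partly through its high libraries, and the other copy alone is not given here. IR+PR-LV replicate 1 lay below all control libraries and the other two far above them, with a log2 fold change of 1.83 (SE 0.52, edgeR adjusted p = 0.299), or 0.99 with its copies added (edgeR adjusted p = 0.268).

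**Figure D5:**
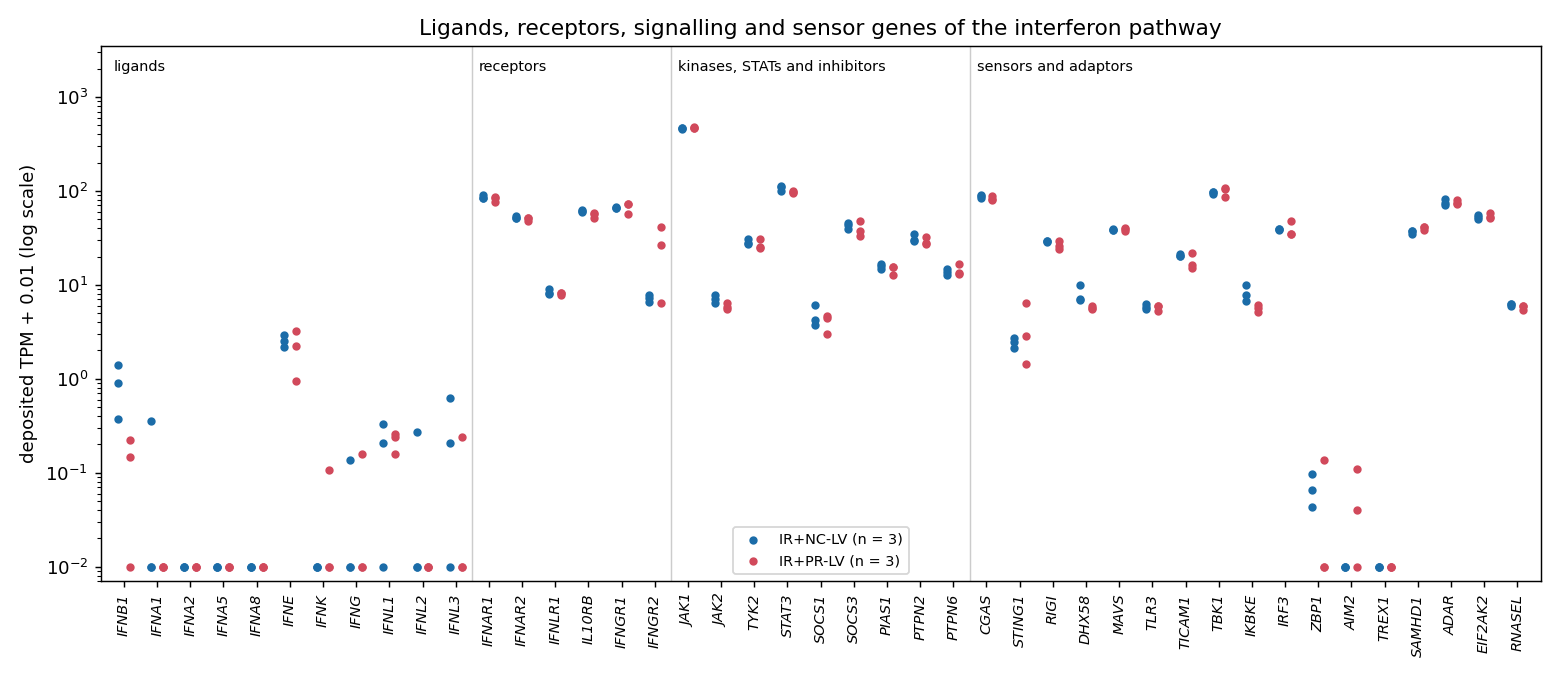
Deposited TPM (log scale, with 0.01 added) of ligands, receptors, kinases with STATs and inhibitors, and sensors with adaptors in the 3 IR+NC-LV and the 3 IR+PR-LV libraries. Ligands other than IFNE rest on few or no counts, whereas JAK1 lies highest, and the groups overlap for most genes.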

How the data were processed

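Bulk RNA-seq libraries of irradiated HK-2 cells were grouped by their labels into IR+NC-LV (n = 3) and IR+PR-LV (n = 3). Poly(A)-selected RNA was sequenced in pairs, and the authors deposited raw read counts for each gene beside TPM and FPKM values. The deposited TPM follows from the count and the exon length, and the deposited FPKM was not used further. The submitters' processing notes name CASAVA, featureCounts 2.0.1, DESeq2 1.16.1 and the build hg38. The aligner, the annotation release and the strand setting were not given in the sources used here.

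The counts were compared with edgeR 4.0.16 in R 4.3.3, using filterByExpr (minimum count 10, minimum total count 15), TMM scaling (factors from 0.981 to 1.04) and the quasi-likelihood functions glmQLFit and glmQLFTest with group as the only term. Benjamini-Hochberg adjustment ran over 15340 entries, and the threshold was 0.05. CPM values are TMM-normalized. The procedure was also run on counts simulated with the same spread beyond counting noise for every gene, unlike these data. The outcome is not given here, and no result rests on it. Depth was 13407074 to 28540041 counts. Replicates differed beyond counting noise (chi-square per degree of freedom 3.44 to 13.2), so none was merged. Promoters were from RefSeq (GRCh38.p14), and unique 100-base stretches from the longest transcript of each gene in GENCODE release 29.

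The members and the other lists were chosen with earlier results of these data known. Values per library are given for members with an unadjusted p under 0.05, the 5 highest and 5 lowest tested members by TPM, the 3 largest log2 fold changes in each direction, IRF9, STAT2 and chosen receptors, kinases and sensors, with up to 6 other pathway genes by p. The alternatives were DESeq2 1.42.0, scaling by RLE or by the upper quartile, a filter of only 1 count in all or of 10 counts per library, a block on replicate number, removal of each library, summed copies and the unadjusted threshold. Testing only members listed 1 time was added after seeing the data. Results for 2 genes of the other lists are not reported here. No set test was run, and single-cell data were not analysed here.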

Additional observations from a re-analysis of the deposited data

How the results depend on the processing

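The count of all genes past the threshold was 10, and it was 168 with DESeq2, 342 with no filter on low counts, 3 with the replicate number as a block, between 1 and 28 with 1 library left out, and 1614 at the unadjusted threshold. Interferon-stimulated genes past the threshold were 0, against 1 with DESeq2 and 1 with no filter on low counts (IRF1 both times, log2 fold change -0.57), and 5 at the unadjusted threshold. Their median log2 fold change stayed between -0.12 and -0.03 and the number on the lower side between 22 and 31 in all settings. The 37 tested members listed 1 time, an alternative chosen after seeing the data, had 0 past the threshold in edgeR, 25 lower and a median of -0.06. With the copies of each name summed there were 0 past the threshold and 27 lower. The replicate block changed no call of a member. The pairing by replicate number was not borne out, since the deviations of same-numbered libraries correlated at -0.0088, 0.05 and 0.07, and not every library correlated best with its own number.

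Signs turned for small or single-library differences. IFIT3 was 0.0020 with RLE normalization, 0.0099 with DESeq2 and 0.0079 with no filter on low counts. With 1 library left out, log2 fold changes ranged from -0.039 to 0.021 for IFIT3, -0.11 to 0.050 for UBE2L6, -0.026 to 0.22 for IFIT1, -0.0096 to 0.24 for ISG15, -0.77 to 0.29 for OAS2, -0.95 to 0.065 for IRF9, -0.082 to 0.020 for CGAS, -0.073 to 0.0072 for IFNAR1, -0.082 to 0.00072 for IFNAR2 and -0.20 to 0.95 for STING1. The cause was not tested. The copy of IFNGR2 passed the threshold without IR+PR-LV replicate 1 (2.27, edgeR adjusted p = 0.0124) and with no filter on low counts (1.84). At this depth genes near 0.2 CPM or below, such as EPSTI1 and XAF1, could not be compared.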

Other observations

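Antigen-processing genes that interferon also induces are listed in 8 copies each on the assembly, on chromosome 6 and its alternate scaffolds, and their reads are divided among the copies. With the copies added, PSMB9, a subunit of the immunoproteasome, had 17, 19 and 9 counts in IR+NC-LV and 86, 67 and 69 counts in IR+PR-LV. The groups did not overlap, as in 17.0% of all tested entries, and the log2 fold change was 2.08 (SE 0.32, edgeR adjusted p = 0.0574). TAP1, the peptide transporter of the same cluster, had 17, 25 and 24 counts against 31, 65 and 52, with 0.86 (SE 0.25, edgeR adjusted p = 0.284). PSMB8, another immunoproteasome subunit, was at 2.21, 6.08 and 2.16 CPM against 1.73, 3.04 and 6.14 CPM, with 0.02 (SE 0.48). In single copies neither PSMB9 nor TAP1 passed the filter on low counts. These genes were named after their values were seen. The chemokine CXCL10, a classical interferon target, had 7, 4 and 8 counts in IR+NC-LV and 1, 2 and 0 in IR+PR-LV and was too low to test.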
